A study of Mus musculus with 6 samples.

Results

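The CC chemokines studied here were 10 genes of the 24786 gene symbols in the deposited expression table: *Ccl2*, *Ccl3*, *Ccl4*, *Ccl5*, *Ccl6*, *Ccl7*, *Ccl9*, *Ccl12*, *Ccl17* and *Ccl22*. They were chosen by symbol, and all 10 were found. Their transcripts were measured by RNA sequencing in Raw264.7 cells, a mouse macrophage line that the labels trace to a tumor raised with Abelson leukemia virus and assign to strain C57BL/6. Cells had been infected, with a Lipofectamine reagent present, with lentivirus carrying a control hairpin (sh-NC, n = 3 libraries) or a hairpin against *Etv5* (sh-*Etv5*, n = 3 libraries). Both groups were grown in DMEM with serum, penicillin and streptomycin, and the labels name no further stimulus. The labels place expression measurements 24 or 48 hours after infection. The paper, however, describes the sequenced cells as stably transfected, and infected Raw264.7 cells as kept in puromycin through passages. The time from infection to sequencing is therefore uncertain. The labels do not say which hairpin was used or whether replicates were infected separately. The p-values therefore measure the spread between these libraries, which may be technical.

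CC chemokines are small secreted proteins named for a pair of adjacent cysteines near the start of the mature chain. They bind G protein-coupled receptors on leukocytes and guide these cells along a concentration gradient. Macrophages are a major source of the ligands of CCR2, which draw monocytes out of the blood, and of the macrophage inflammatory proteins and RANTES, which draw monocytes, macrophages and T cells. In adipose tissue, CCL2 is best known for bringing monocytes into the expanding fat depot.

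The values were RPKM, reads scaled by gene length and by the mapped reads of the library, so that levels can be set side by side between genes. The libraries summed to between 320462 and 340257 RPKM over all genes, and the read depth behind the values is unknown. *Etv5*, the knockdown target, was lower in each sh-*Etv5* library (4.91 to 5.28 RPKM) than in each sh-NC library (9.18 to 9.89 RPKM). A test was run on the 10738 genes with at least 1 RPKM in at least 3 libraries, with limma on log2(RPKM + 1), and a gene was called where its p, adjusted over all tested genes by Benjamini-Hochberg, was under 0.05. Because of the added 1, log2 fold changes of genes with low RPKM come out smaller than the change in RPKM itself. Of the macrophage markers, 11 of 12 passed the filter, and their summed level was 5081 to 5219.6 RPKM in sh-NC and 4157 to 4326 RPKM in sh-*Etv5* libraries. Much of that sum was from 1 of these markers, *Lyz2*, which went from 2834 ± 40.3 to 2041 ± 54.2 RPKM (SD, n = 3). Of these markers 6 were higher, among them *Itgam* and *Adgre1*, and also *Aif1*, which passed the filter only through its sh-*Etv5* libraries, and 5 were lower, among them *Csf1r*, which encodes the receptor for macrophage colony-stimulating factor, whereas *Mertk* was at most 0.0653 RPKM. Calls were common among all tested genes too, with 33.3% higher and 41% lower. All 24 markers of other cell types were below 1 RPKM in every library, with sums of 1.03 to 1.54 RPKM in sh-NC and 1.67 to 1.93 RPKM in sh-*Etv5* libraries, and 5 of them (*Ly6g*, *Elane*, *Ncr1*, *Col1a2* and *Krt8*) were listed at 0 throughout. In bulk libraries, fewer cells of a type and less RNA per cell cannot be told apart.

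The 10 genes lie in 3 clusters of the mouse genome (GRCm38, GENCODE release M21). *Ccl2*, *Ccl7* and *Ccl12* share 67.8 kb of chromosome 11, from 82035571 to 82103400. *Ccl5*, *Ccl9*, *Ccl6*, *Ccl3* and *Ccl4* share 139 kb of the same chromosome, from 83525778 to 83664683. *Ccl22* and *Ccl17* share 66.4 kb of chromosome 8, from 94745590 to 94812036. Each gene has 3 or 4 exons in its longest annotated form, and none of their exons overlaps an exon of another gene. Apart from *Ccl9*, of whose 50-base transcript sequences 1.97% also occur in other genes, no member shares a 50-base sequence with another gene, so that the close relatives of the family can be told apart by reads of that length.

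Promoter sequence from RefSeq (GRCm38.p6) was found for 6 of the 10 genes, *Ccl3*, *Ccl6*, *Ccl9*, *Ccl12*, *Ccl17* and *Ccl22*. The 250 bases before the start site are shown for 4 of them, on the strand of the gene, because *Ccl3* and *Ccl12* were among the genes with large rises described below and the neighbors *Ccl9* and *Ccl6* were those with small ones. Capitals mark matches, on either strand, to the letters searched: GGG and TTCC spaced by 3 free bases for κB, CCGGAAG for the ETS family to which ETV5 belongs, AGGAAG for PU.1-like ETS factors, TGANTCA for AP-1, TTC and GAA spaced by 4 free bases for STAT6 and TATAAA for the TATA box.
Ccl3, chr11:83649379-83649628, minus strand: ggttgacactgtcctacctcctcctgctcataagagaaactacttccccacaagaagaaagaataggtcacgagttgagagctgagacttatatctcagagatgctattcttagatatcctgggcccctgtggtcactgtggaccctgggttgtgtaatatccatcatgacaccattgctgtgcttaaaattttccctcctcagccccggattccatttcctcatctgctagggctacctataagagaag
Ccl12, chr11:82101595-82101844, plus strand: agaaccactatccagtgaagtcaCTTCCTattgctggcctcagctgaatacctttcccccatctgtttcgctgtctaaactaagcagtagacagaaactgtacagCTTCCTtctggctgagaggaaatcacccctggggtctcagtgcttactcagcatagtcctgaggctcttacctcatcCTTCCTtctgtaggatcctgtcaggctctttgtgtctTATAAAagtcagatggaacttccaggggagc
Ccl9, chr11:83578637-83578886, minus strand: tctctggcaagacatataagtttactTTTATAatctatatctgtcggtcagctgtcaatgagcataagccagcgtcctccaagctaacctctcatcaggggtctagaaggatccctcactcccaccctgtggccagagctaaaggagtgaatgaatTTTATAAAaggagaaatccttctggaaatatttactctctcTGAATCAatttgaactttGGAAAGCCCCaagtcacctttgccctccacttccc
Ccl6, chr11:83593088-83593337, minus strand: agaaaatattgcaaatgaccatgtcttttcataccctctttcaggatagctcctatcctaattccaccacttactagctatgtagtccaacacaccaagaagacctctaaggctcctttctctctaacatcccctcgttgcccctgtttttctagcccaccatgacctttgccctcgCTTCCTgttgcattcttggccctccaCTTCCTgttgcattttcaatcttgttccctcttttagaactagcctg

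In these windows *Ccl12* held AGGAAG at 3 places and TATAAA from 31 to 26 bases before the start, while *Ccl6* held AGGAAG at 2 places. *Ccl9* held matches to the κB letters (GGAAAGCCCC, 35 to 26 bases before the start), to AP-1 (TGAATCA) and to the TATA box, where a pair of matches on opposite strands overlap. *Ccl3* held none of the 6 patterns. Of the promoters not shown, *Ccl22* held AGGAAG once, and *Ccl17* held AGGAAG and the STAT6 letters (TTCTCTGGAA) once each. The same patterns occur in the 250 bases before 32851 start sites of the genome with shares of 4.65% for κB, 6.91% for the longer ETS letters, 29.5% for AGGAAG, 6.75% for AP-1, 5.85% for STAT6 and 12.4% for TATAAA. The longer ETS letters were in 0 of the 6 windows, and no match says only that these letters are not in this window.

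Of the 10 CC chemokines, 8 passed the filter on low values, and these 8 rose in sh-*Etv5* cells. *Ccl7* and *Ccl12* passed only through their sh-*Etv5* libraries, so that a difference was built into their selection. *Ccl17* and *Ccl22*, both under 1 RPKM in each library, did not pass it. Calls were common in the whole table, where 74.3% of the 10738 tested genes were called, 33.3% higher and 41% lower. Of the 8, 6 rose by more than 1 on the log2 scale, as did 6.23% of tested genes. The same 6 rose by more than 2, as did 1.46%, and 5 rose by more than 3, as did 0.549%. Their median log2 fold change was 3.33, against -0.05 over all tested genes, with a range from 0.55 for *Ccl6* to 6.53 for *Ccl7*. In each of the 8 the sh-NC and sh-*Etv5* libraries did not overlap, which was also so for 76.4% of tested genes. These counts, the median and the lack of overlap include *Ccl7* and *Ccl12*, for which a difference was built into the selection.

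**Figure D1:**
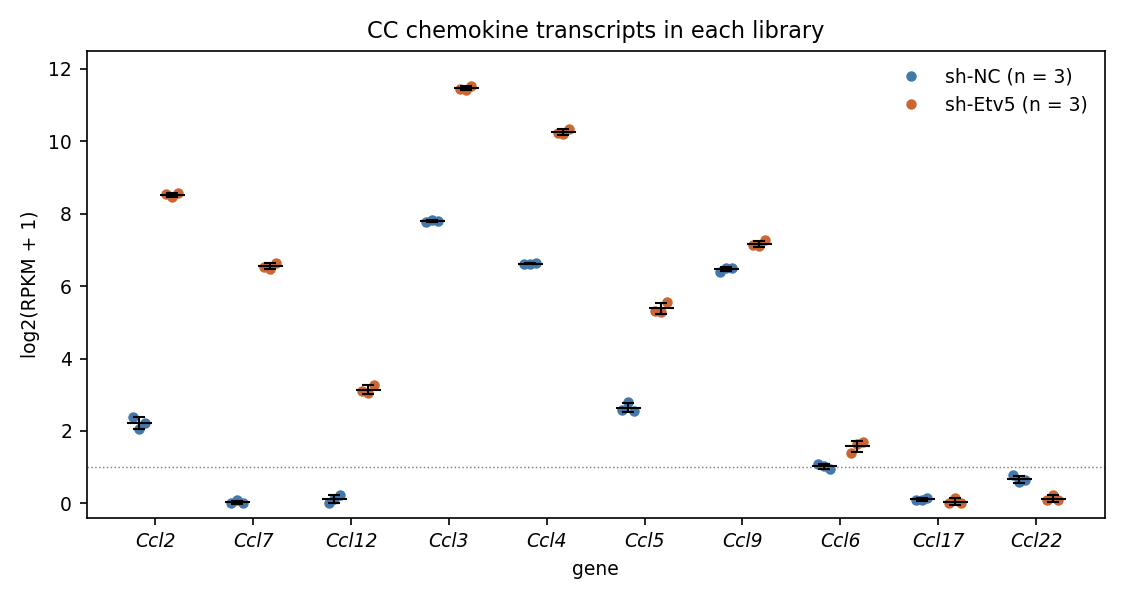
Level of each CC chemokine in each library as log2(RPKM + 1), where points are single libraries (blue sh-NC, orange sh-*Etv5*), horizontal bars are group means and error bars are SD (n = 3), and the dotted line marks 1 RPKM. The groups are apart for the 8 genes from *Ccl2* to *Ccl6*, by the widest margins for *Ccl2* and *Ccl7*, while *Ccl17* and *Ccl22* stay under the line in both groups.

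**Figure D2:**
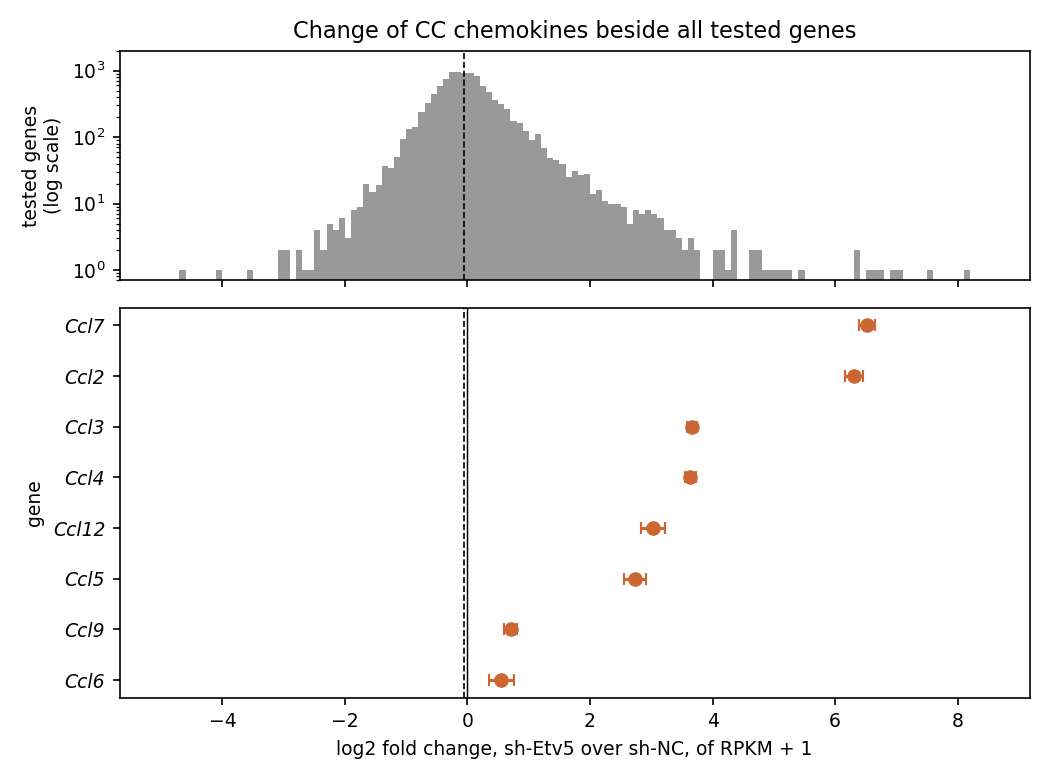
Upper panel, number of tested genes (log scale) by log2 fold change of RPKM + 1 between sh-*Etv5* and sh-NC cells, in steps over all 10738 genes. Lower panel, log2 fold changes of the 8 tested CC chemokines with 95% confidence intervals from limma, where the estimates run from 0.55 to 6.53 and the intervals from 0.34 to 6.66, to the right of the median of all genes (dashed, -0.05).

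The largest rises were those of *Ccl7* and *Ccl2*, neighboring genes for ligands of CCR2. *Ccl2*, which encodes monocyte chemotactic protein-1, gave 4.19, 3.18 and 3.63 RPKM with the control hairpin and 374, 352 and 378 RPKM with the hairpin against *Etv5*. The lowest sh-*Etv5* library was 84.2 times the highest sh-NC library, and the means stood at a ratio of 100.4. On the log2 scale *Ccl2* rose by 6.31 (standard error 0.0675, limma adjusted p = 6.61e-14), place 9 among all tested genes. Its level moved from place 8444 to place 101 among the 24786 gene symbols. *Gm17268* is annotated across *Ccl2* on the opposite strand, without shared exons.

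*Ccl7*, the neighboring gene, encodes monocyte chemotactic protein-3, another ligand of CCR2. It was listed at 0 in sh-NC replicates 1 and 3 and at 0.0591 RPKM in sh-NC replicate 2, and it reached 91.8, 88.2 and 99.2 RPKM after knockdown. Every sh-*Etv5* library was far above every control library, and no ratio was computed because the control values were at or near 0. Its rise of 6.53 on the log2(RPKM + 1) scale (standard error 0.0593, limma adjusted p = 1.75e-14) ranked 7 among tested genes and became 12.25 with a pseudocount of 0.01 in place of 1.

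*Ccl12*, which encodes a mouse CCR2 ligand also called monocyte chemotactic protein-5, was at 0, 0.0904 and 0.181 RPKM in sh-NC and at 7.62, 7.29 and 8.65 RPKM in sh-*Etv5* libraries. The groups were apart, but the level in sh-*Etv5* cells stayed far below that of the other two CCR2 ligands. The rise was 3.02 (standard error 0.0896, limma adjusted p = 2.16e-10), and it became 7.09 with a pseudocount of 0.01. With that pseudocount *Ccl2* rose by 6.65, so which of *Ccl2* and *Ccl12* rose more depended on the pseudocount. Within the sh-*Etv5* libraries, *Ccl2* was 3.96 ± 0.141 times *Ccl7* in RPKM (SD, n = 3), and *Ccl7* was 11.9 ± 0.347 times *Ccl12*. The proportions of the cluster were thus alike from library to library. *Ccl11*, which encodes eotaxin and lies between *Ccl7* and *Ccl12*, was listed at 0 in every library, so the rise did not extend to each gene of the cluster.

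The log2 ratio of (*Ccl2* + 1) to (*Ccl7* + 1) was 2.19 ± 0.199 in sh-NC and 1.97 ± 0.0511 in sh-*Etv5* cells (SD, n = 3). These values overlapped between the groups (2-sided exact permutation test, p = 0.3, where 3 against 3 libraries cannot give less than 0.1). In sh-NC cells, however, the added 1 made up nearly all of the *Ccl7* term. Neither the overlap nor this p therefore shows that the proportion of *Ccl2* to *Ccl7* was unchanged. The difference of -0.22 between the groups was -0.12 without sh-NC replicate 1. With a pseudocount of 0.1 the difference between the groups went from -0.22 to -3.02, because *Ccl7* was at or near 0 in sh-NC cells.

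*Ccl3* and *Ccl4*, which encode the macrophage inflammatory proteins MIP-1α and MIP-1β, were the most abundant members in both groups. Control libraries held 219, 226 and 219.9 RPKM of *Ccl3*, and knockdown libraries 2807, 2734 and 2966 RPKM. This gene stood at a ratio of means of 12.8 and rose by 3.67 on the log2 scale (standard error 0.0367, limma adjusted p = 3.85e-14). In sh-*Etv5* cells *Ccl3* held place 6 of all genes by mean RPKM, from place 187 in sh-NC cells.

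For *Ccl4* the libraries read 97.1, 97.1 and 97.7 RPKM in sh-NC and 1191, 1176 and 1301 RPKM in sh-*Etv5* cells. By the means this was a ratio of 12.6, or a rise of 3.64 on the log2 scale (standard error 0.0399, limma adjusted p = 7.32e-14), which took *Ccl4* from place 553 to place 12. *Ccl3* and *Ccl4* are neighbors transcribed in opposite directions. Their ratio was 2.28 ± 0.0431 in sh-NC and 2.32 ± 0.0389 in sh-*Etv5* cells (SD, n = 3). The libraries of the groups overlapped, and the difference of 0.03 in the log2 ratio was not larger than the spread (2-sided exact permutation test, p = 0.3, smallest possible 0.1). It went from 0.02 without sh-*Etv5* replicate 1 to 0.04 without sh-NC replicate 2. A difference between the rises of the pair was therefore not detectable with these libraries.

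*Ccl5*, which encodes RANTES, a chemoattractant of T cells and monocytes, lies at the other end of the same cluster. Levels were 4.96, 5.95 and 4.90 RPKM under the control hairpin and 38.8, 37.95 and 45.8 RPKM under the hairpin against *Etv5*. The ratio of means was 7.75, and on the log2 scale *Ccl5* rose by 2.74 (standard error 0.0807, limma adjusted p = 2.09e-10). Of the sh-*Etv5* libraries, replicate 3 was the highest for *Ccl5*, as it was for each of the other 7 tested members.

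*Ccl9* and *Ccl6*, a pair of related genes that lie between *Ccl5* and *Ccl3* and encode ligands of CCR1, rose least. *Ccl9* held 83.4, 90.2 and 88.8 RPKM in controls, against 139.7, 137 and 152 RPKM after knockdown. It rose by 63.6% between the means (log2 fold change 0.70, standard error 0.0460, limma adjusted p = 1.13e-07). It took the third place by level among the members in sh-NC cells and was passed by *Ccl2* in sh-*Etv5* cells.

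For *Ccl6* the values were 1.14, 1.04 and 0.932 RPKM in sh-NC and 1.64, 2.12 and 2.22 RPKM in sh-*Etv5* libraries. The gap between the highest control library and the lowest knockdown library was small, a ratio of 1.44. Its rise was 0.55 (standard error 0.0944, limma adjusted p = 0.000284). This became 0.93 with a pseudocount of 0.01 and 0.40 with quantile normalization of the libraries. Without the filter on low values its limma adjusted p was 0.0132. The noncoding gene *E230016K23Rik*, which runs across *Ccl6* on the opposite strand without shared exons, was at most 0.105 RPKM. The ratio of *Ccl9* to *Ccl6* was 85.1 ± 11.3 in sh-NC and 72.8 ± 10.8 in sh-*Etv5* cells (SD, n = 3), and these values overlapped (2-sided exact permutation test, p = 0.2).

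**Figure D3:**
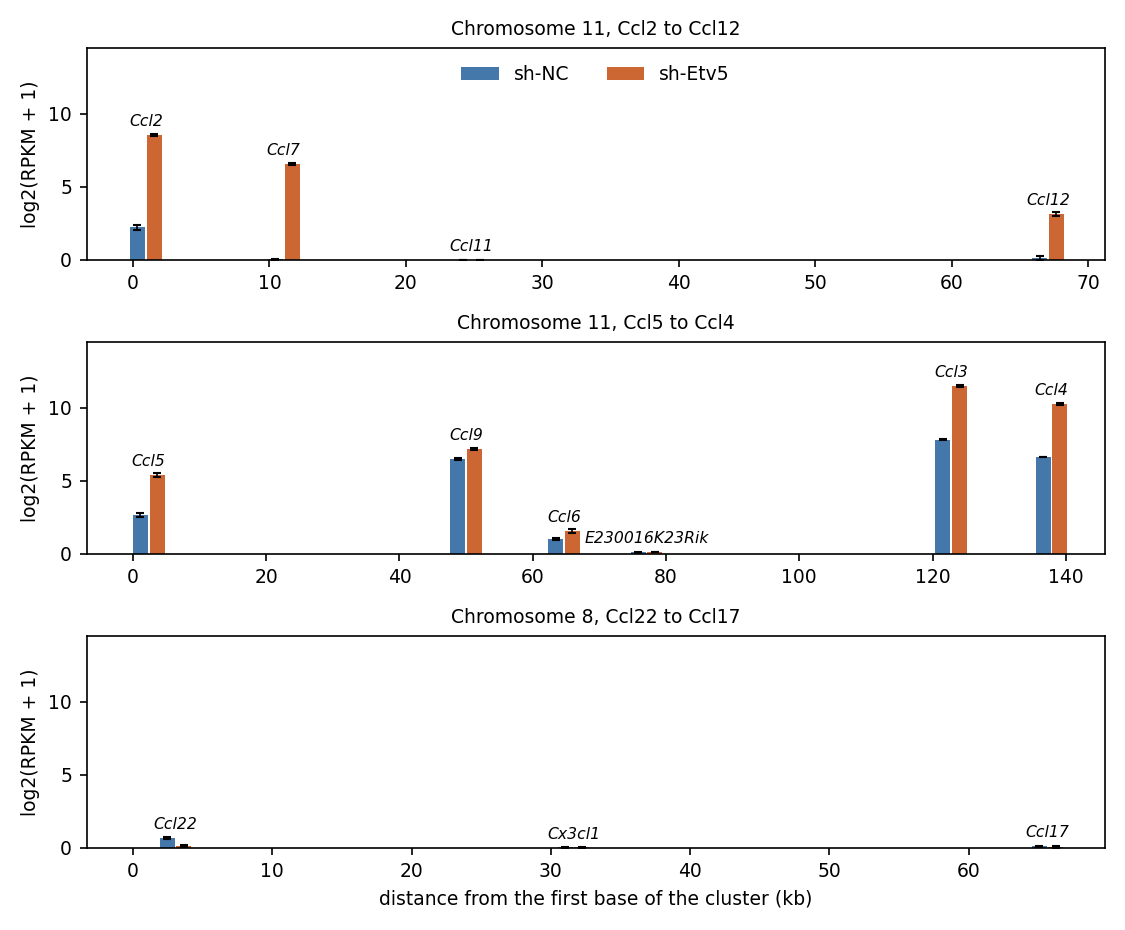
Mean log2(RPKM + 1) of the CC chemokine genes and the genes between them (blue sh-NC, orange sh-*Etv5*, error bars SD, n = 3) by distance in kb from the first base of each cluster. Orange bars exceed blue ones for the 8 tested genes of both chromosome 11 clusters, most at *Ccl2* and *Ccl7*, while *Ccl11*, *E230016K23Rik* and the chromosome 8 cluster stay near 0.

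The chromosome 8 genes did not share the rise. *Ccl22*, which encodes macrophage-derived chemokine, a ligand of CCR4, read 0.717, 0.506 and 0.562 RPKM in control libraries, against 0.0581, 0.176 and 0.0594 RPKM in knockdown libraries. The sh-*Etv5* values were all below the sh-NC values. It did not reach the filter, and when all 24786 symbols were tested its log2 fold change was -0.54 (limma adjusted p = 0.00488, 95% confidence interval -0.72 to -0.35). *Ccl17*, which encodes the other ligand of CCR4, was at 0.0627, 0.0612 and 0.110 RPKM in sh-NC and at 0, 0.108 and 0 RPKM in sh-*Etv5* libraries. These groups overlapped, and without the filter the difference was -0.06 (95% confidence interval -0.19 to 0.07, limma adjusted p = 0.589), so that a difference was not detectable at these values. *Cx3cl1*, which encodes fractalkine and lies between the pair, was at most 0.0514 RPKM.

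Values of further genes are given beside *Ccl22*, chosen after they were seen. *Irf4*, an interferon regulatory factor, went from 0.862 ± 0.124 to 0.458 ± 0.124 RPKM (SD, n = 3, limma adjusted p = 0.0359 without the filter), and *Zbtb46*, a transcription factor of classical dendritic cells, from 0.756 ± 0.189 to 0.148 ± 0.0365 RPKM (SD, n = 3, limma adjusted p = 0.00605 without the filter). *Xcr1*, another dendritic cell marker, went the other way, from 0.0444 ± 0.0122 to 0.138 ± 0.0297 RPKM (SD, n = 3), without overlap of the groups. *Stat6*, the signal transducer of interleukin-4, fell by 0.24 on the log2 scale (limma adjusted p = 0.00039). Their part in the level of *Ccl22* was not tested.

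Summed over the 10 genes, CC chemokine transcripts came to 410.5, 424 and 417 RPKM in control libraries, against 4652, 4535 and 4953 RPKM after knockdown. The sum was 11.3 times higher in sh-*Etv5* cells by the means, and the groups did not overlap (2-sided exact permutation test, p = 0.1, the smallest that 3 against 3 libraries allow). As a share of the RPKM of all genes it went from 0.130% ± 0.00258 to 1.40% ± 0.0446 (SD, n = 3). Without *Ccl3*, the most abundant member, the difference between the groups was 1682 RPKM, against 4296 RPKM with it.

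The make-up of that sum changed as well. *Ccl3* and *Ccl4* took 76.5% ± 0.460 of it in sh-NC and 86.1% ± 0.142 in sh-*Etv5* cells (SD, n = 3). The share of *Ccl2*, *Ccl7* and *Ccl12* was 0.906% ± 0.118 in sh-NC and 9.96% ± 0.204 in sh-*Etv5* cells. By contrast *Ccl9* and *Ccl6* went from 21.2% ± 0.536 to 3.08% ± 0.0406. In each of these shares the groups did not overlap (2-sided exact permutation test, p = 0.1, the smallest possible).

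**Figure D4:**
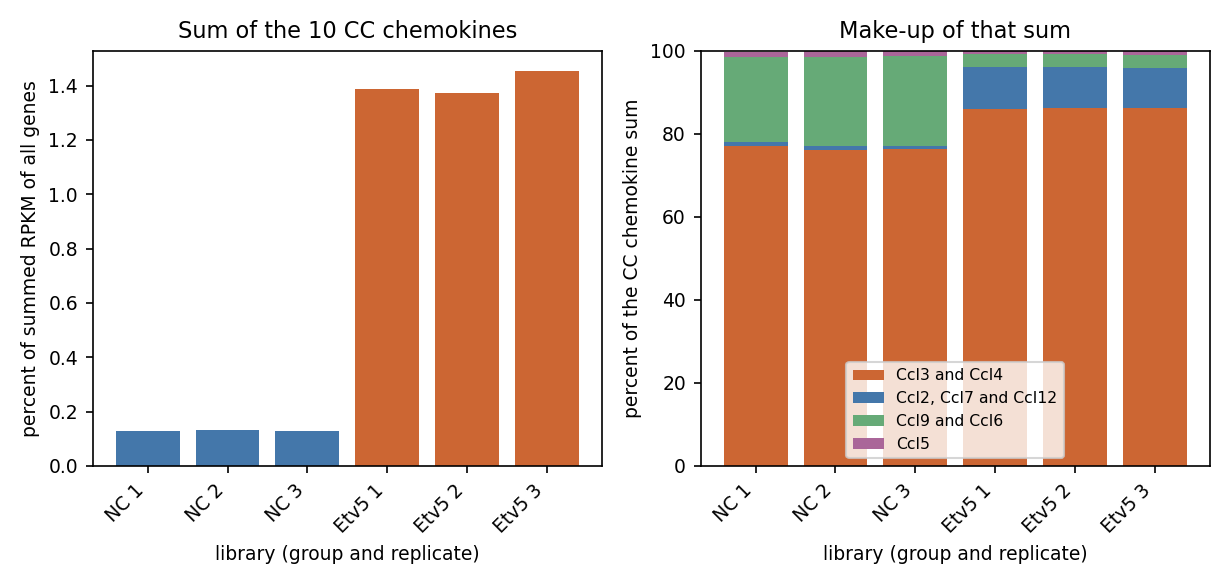
Left, summed RPKM of the 10 CC chemokines as a percent of the RPKM of all genes in each library (blue sh-NC, orange sh-*Etv5*), with means of 0.130% and 1.40%. Right, the percent of that sum taken by 4 groups of genes in each library, where the band of *Ccl9* and *Ccl6* narrows from 21.2% to 3.08% and that of *Ccl2*, *Ccl7* and *Ccl12* widens from 0.906% to 9.96%.

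Ordered by level, the sh-NC cells held *Ccl3*, *Ccl4*, *Ccl9*, *Ccl5*, *Ccl2*, *Ccl6*, *Ccl22*, *Ccl12*, *Ccl17* and *Ccl7* from high to low. The libraries of neighbors in this order did not overlap except for *Ccl12* and *Ccl17*. In sh-*Etv5* cells the order was *Ccl3*, *Ccl4*, *Ccl2*, *Ccl9*, *Ccl7*, *Ccl5*, *Ccl12*, *Ccl6*, *Ccl22* and *Ccl17*, and the last pair overlapped. *Ccl7* thus went from the last place to the fifth, and *Ccl2* from the fifth place to the third.

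By the distance of log2(RPKM + 1) over the 6 libraries, the genes with levels most like *Ccl2* were *Ptgs2* (1.84), *Acod1* (2.12) and *Fabp4* (2.14). *Ptgs2* encodes the inducible cyclooxygenase and went from 8.51 ± 0.394 to 327 ± 10.8 RPKM (SD, n = 3). *Acod1*, the enzyme that makes itaconate, went from 9.62 ± 0.162 to 310.5 ± 6.18 RPKM, and *Fabp4*, a fatty acid carrier of fat cells and macrophages, from 1.27 ± 0.0667 to 233 ± 20.4 RPKM.

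The rest of the family was nearly silent. Of 14 further CC ligands, 6 were listed at 0 in every library (*Ccl1*, *Ccl8*, *Ccl11*, *Ccl19*, *Ccl26* and *Ccl27b*), and 7 more were at most 0.121 RPKM. *Ccl25*, which encodes a ligand of CCR9, was the one gene of this list that passed the filter, and it rose from 2.08 ± 0.155 to 3.53 ± 0.594 RPKM (SD, n = 3, log2 fold change 0.55, limma adjusted p = 0.000384).

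The receptors for these ligands were low in the same cells. Of 15 CC chemokine receptor genes, 2 passed the filter. *Ccrl2*, an atypical receptor that presents chemerin and does not signal through G proteins, rose from 0.992 ± 0.0440 to 5.87 ± 0.601 RPKM (SD, n = 3, log2 fold change 1.78, limma adjusted p = 4.78e-09). *Ccr10* was at 1.65 ± 0.0356 and 1.52 ± 0.344 RPKM (SD, n = 3, limma adjusted p = 0.462). *Ccr2*, the receptor of *Ccl2*, *Ccl7* and *Ccl12*, was at 0.628 ± 0.0188 and 0.654 ± 0.143 RPKM, with overlapping groups. *Ccr1* was at 0.722 ± 0.222 RPKM in controls and 0.339 ± 0.106 RPKM after knockdown (SD, n = 3). Every knockdown library was below every control library for *Ccr1*, with a limma adjusted p of 0.0893 when all symbols were tested.

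Transcription factors and cofactors known for chemokine genes included several large rises. Of 18 such genes 17 were tested, of which 13 rose, 2 fell and 2 did not pass the threshold, with a median log2 fold change of 0.60, where 33.3% of all tested genes were higher and 41% lower with a median of -0.05. The largest rises were those of *Bcl3* (3.48) and *Nfkbiz* (3.46), nuclear IκB proteins that bind NF-κB on DNA, of *Atf3* (3.21), a stress-induced factor that can repress cytokine genes, and of *Cebpd* (2.31), a C/EBP factor of inflamed macrophages. The limma adjusted p of these 4 genes was at most 8.1e-10. Of the 5 NF-κB subunit genes, *Rel* rose from 5.64 ± 0.849 to 10.6 ± 1.48 RPKM (SD, n = 3, log2 fold change 0.80, limma adjusted p = 3.71e-05) and *Nfkb2* by 0.32 on the log2 scale (limma adjusted p = 0.000403). *Rela* rose by 0.17 (limma adjusted p = 0.00408) and *Nfkb1* by 0.13 (limma adjusted p = 0.00979), while *Relb* was at 0.13 (limma adjusted p = 0.123). *Stat6* was among the genes lower in sh-*Etv5* cells (-0.24).

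Regulators of cytokine mRNA decay and stability were called in both directions, with 3 of 10 higher, 6 lower and 1 not called, and a median log2 fold change of -0.31. The share called higher was near the 33.3% of all tested genes, of which 41% were lower. *Zfp36*, which encodes tristetraprolin, a protein that binds AU-rich elements and speeds decay, rose from 19.0 ± 0.588 to 107 ± 2.51 RPKM (SD, n = 3, log2 fold change 2.43). *Zc3h12a* (2.32), which encodes the ribonuclease Regnase-1, and its relative *Zc3h12c* (1.47) rose too. *Zfp36l2*, a relative of *Zfp36*, fell by 0.83 on the log2 scale. The limma adjusted p of these 4 genes was at most 9.92e-09.

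Of the genes for the processing and retention of chemokines 9 were tested, of which 4 were called higher, 4 were called lower and 1 was not called, shares near those of all tested genes (33.3% and 41%). Of the higher genes, *Mmp12* passed the filter only through its sh-*Etv5* libraries. *Srgn*, which encodes serglycin, a proteoglycan core of secretory granules, rose from 49.6 ± 1.16 to 227 ± 12.8 RPKM (SD, n = 3, log2 fold change 2.17, limma adjusted p = 7.42e-12). *Furin*, a proprotein convertase, rose by 1.74 and *Sdc4*, a heparan sulfate proteoglycan of the cell surface, by 0.88 on the log2 scale (limma adjusted p = 7.88e-11 and 1.44e-09). *Sdc1*, another syndecan, fell by 0.75 (limma adjusted p = 4.17e-07). *Dpp4*, a protease that trims the ends of many chemokines, was listed at 0 in all 6 libraries.

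**Figure D5:**
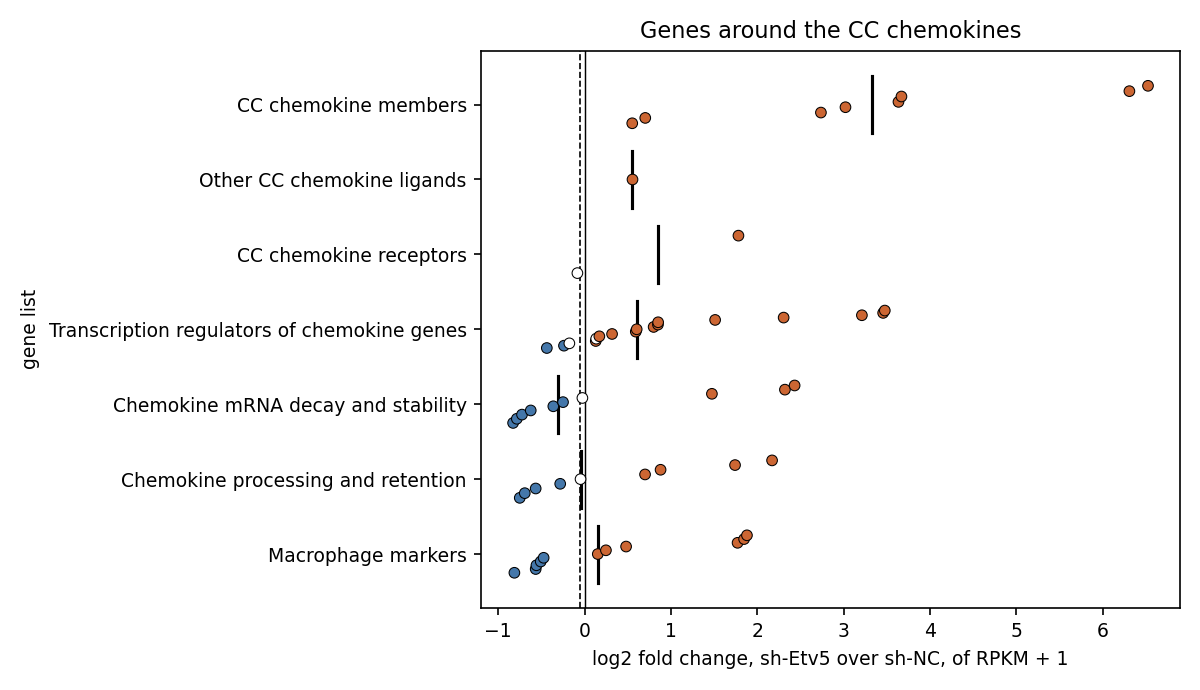
Log2 fold change of RPKM + 1 between sh-*Etv5* and sh-NC cells for the tested genes of 7 lists, each point a gene (orange called higher, blue called lower, white not called), with the median of each list as a black bar and that of all tested genes dashed (-0.05). The 8 CC chemokines all lie to the right with a median of 3.33, whereas the lists for mRNA decay and for processing lie on both sides. That median includes *Ccl7* and *Ccl12*, which passed the filter only through their sh-*Etv5* libraries.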

How the data were processed

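Messenger RNA of Raw264.7 cells was sequenced in 3 sh-NC and 3 sh-*Etv5* libraries. The labels gave each library's group and number. The authors deposited RPKM values per gene symbol and library, without log transformation, in columns named after coverage tracks. The submitters' processing notes name the build mm10. The aligner, the annotation and the use of strand are not given in the sources used here. RPKM values are already scaled by gene length and by mapped reads, so a few abundant genes that change can shift the others. Because they hold no counts, depth is unknown and no counting interval was computed.

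The members and gene lists were chosen with earlier results of these data known. Genes with at least 1 RPKM in at least 3 libraries were compared on log2(RPKM + 1) by 2-sided moderated tests of limma 3.58.1 under R 4.3.3, without covariates and with a variance trend, and p-values were adjusted over all tested genes by Benjamini-Hochberg. The limma step was tested on simulated data in which few genes changed. That setting differs from these data, where most tested genes were called. Sums and ratios per library were compared by exact permutation tests in SciPy 1.17.1. Named were the 10 members, up to 4 tested genes per list with the largest absolute change, the genes inside the clusters and the 3 profiles nearest to *Ccl2* by Euclidean distance. *Ccr1*, *Ccr2*, *Irf4*, *Zbtb46*, *Xcr1*, *Stat6*, *Rel*, *Rela*, *Relb*, *Nfkb1*, *Nfkb2*, *Mmp12*, *Mertk*, *Lyz2* and *Dpp4* and the motif letters were chosen after the values were seen. Coordinates are those of GENCODE release M21 (GRCm38), to which all members matched by symbol, and promoter sequences those of RefSeq. No pairing by replicate number was seen: the correlations of deviations from the group means of same-numbered libraries were 0.07, -0.07 and -0.04. Libraries with different numbers gave -0.07 to 0.11. Such correlations cannot tell whether same-numbered libraries were prepared together. Some genes of the lists are not reported here by name.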

Additional observations from a re-analysis of the deposited data

How the results depend on the processing

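All 118 alternative fits of the 8 tested CC chemokines (other pseudocounts, filters, scalings and variance models, the replicate block, and each library left out) kept their direction and an adjusted p under 0.05. The fits with a library left out kept the genes that had passed the filter with all libraries. Filtered anew, *Ccl7* and *Ccl12* would not have passed without a sh-*Etv5* library, so these fits say less about them. With the replicate block 3539 of all genes were higher and 4361 lower, against 3575 and 4399 without it, and the block changed no call of a CC chemokine. A required log2 fold change above 1 moved most counts: 669 of all genes were then higher and 322 lower, of the lists 5 transcription regulators and 2 processing genes were higher, 0 further ligands were higher, and 0 transcription regulators, 0 decay genes and 0 processing genes were lower. Without the filter on low values 1 CC chemokine (*Ccl22*) was lower, 2 further ligands and 2 receptors were higher and 1 receptor was lower. In the same fit 3713 of all 24786 symbols were higher and 3937 lower. With a mean RPKM of at least 5 the further ligands and the receptors had 0 genes higher, since neither *Ccl25* nor *Ccrl2* was then tested. The summed level differed by 1682 RPKM without *Ccl3*, and the log2 ratio of *Ccl2* to *Ccl7* by -3.02 with a pseudocount of 0.1. The unknown depth limits what the values near 0 can show, in particular for *Ccl7*, *Ccl12* and *Ccl17* in single libraries.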

Other observations

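Several receptors and ligands under the filter had values that did not overlap between the groups, at very low levels. Without the filter, *Ccr8* was at 0.0417 to 0.0421 RPKM in the sh-NC libraries and listed at 0 in the sh-*Etv5* libraries, *Ackr4*, an atypical receptor that takes up CCL19, CCL21 and CCL25, was at 0.329 ± 0.0270 and 0.421 ± 0.0362 RPKM (SD, n = 3, limma adjusted p = 0.0492), and *Ccl28* was listed at 0 in sh-NC and was at most 0.0144 RPKM in sh-*Etv5* libraries. These genes were named after their values were seen, and the unknown depth limits what values so near 0 can show. Of all 24786 symbols, 3713 were called higher and 3937 lower without the filter.

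The promoters of the neighbors *Ccl6* and *Ccl9* share a run of 13 bases, gccctccacttcc, that begins 55 bases before the start of *Ccl6* and 14 bases before the start of *Ccl9*. Among the 6 promoters no other pair shared more than 10 bases in a row.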
